A study of Homo sapiens with 12 samples.

Results

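The genes described here are the epithelial ion channels and transporters through which a colonic cell secretes chloride, returns potassium and takes up sodium. They are 9 genes of the 60675 gene IDs in the count table of HT29 cells treated with a water extract of Aconitum carmichaeli Debeaux (ACD). The genes are CFTR, ANO1 and CLCA4 for chloride exit, SLC12A2 for chloride entry, KCNQ1, KCNE3 and KCNN4 for potassium recycling, and SCNN1A and ATP1B1 for sodium entry and the sodium pump. They were chosen by their role and with their measured levels in all 4 groups known, so their values are given as a description, without p-values. HT29 is a cell line derived from a human colorectal adenocarcinoma. RNA was sequenced from cells in growth medium, 24 h after ACD or its vehicle, PBS with 2% DMSO, was added. The 2% is that of the vehicle itself, before it was added to the medium. ACD was given at 20 µg/mL in the low-dose group, 100 µg/mL in the medium-dose group and 500 µg/mL in the high-dose group. Each of the 4 groups had 3 libraries, and the labels do not say whether these came from separate cultures, so the spread between them may be technical. Titles and treatment entries name ACD, while a longer note in the labels describes an extract of Poria cocos, and the groups follow the former. All values come from 1 tumour-derived line, and no second line was analysed here.

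Chloride secretion begins when the sodium pump, an alpha and a beta subunit, keeps sodium low inside the cell, which drives the cotransporter NKCC1 (SLC12A2) to bring in chloride with sodium and potassium across the basolateral membrane. Potassium leaves again through basolateral channels, the cAMP-regulated KCNQ1 with its beta subunit KCNE3 and the calcium-activated KCNN4, and chloride leaves through apical channels, mainly the cAMP-regulated CFTR, with the calcium-activated ANO1 as a second route. Sodium uptake in the distal colon runs through the channel ENaC, whose alpha subunit is SCNN1A, and water follows the ions.

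The total per library ranged from 15941255 to 33866644 expected counts, and levels are given as CPM, the counts of a gene scaled to a common library size with the TMM factors of edgeR. High-dose replicate 2 was the shallowest library and stood apart. Its log2 values differed from those of its fellow replicates with an SD of 0.502 over genes, against 0.102 to 0.293 in the other 11 libraries. Its difference from the other high-dose libraries moved with transcript length, with a median log2 difference of 0.41 over 2648 genes with canonical transcripts of up to 2012 bases and −0.35 over 2647 genes with transcripts of 5196 bases or more. The part of this in the results was not tested, so high-dose fold changes are given with and without that library for the 9 genes, as far as they were tested, and for the named genes of other lists where its removal changed the result. With it left out, 768, 249 and 109 genes were called in all from the high to the low dose, against 451, 104 and 17 with all libraries. All 12 markers of colonic epithelium had a mean of at least 1 CPM, with a summed level of 11400 to 13600 CPM in every group. The 3 ionocyte markers, which would mark a rare CFTR-rich cell type, had at most 0.0352 CPM in any library, with ASCL3 and ATP6V1G3 at 0. The BEST4+ colonocyte markers summed to at most 0.964 CPM, with OTOP2 and OTOP3 at 0. Of the 15 markers of leukocytes, fibroblasts, endothelium, neurons and glia, LYZ was abundant, with 1260 to 1890 CPM, COL1A1 and PECAM1 averaged 1.19 and 1.93 CPM, and PTPRC, CD3E, COL1A2, DCN and SNAP25 were at or close to 0.

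Sequence upstream of the start site is shown for SLC12A2 and KCNE3, because these were the genes called at the high dose, and for CLCA4, because it had the lowest high-dose level relative to vehicle among the 8 tested genes. The sequences are from RefSeq promoter windows on GRCh38.p14, in which 7 of the 9 genes have an entry. Printed are the bases before the start site, for KCNE3 only the 70 that also lie before the earlier gene start in GENCODE. Capitals mark matches on either strand to GCGTG, the core of the AhR element, TGACG, a partial cAMP response element, and TTTATG, a CDX2 motif.
SLC12A2, chr5:128083516-128083765, plus strand: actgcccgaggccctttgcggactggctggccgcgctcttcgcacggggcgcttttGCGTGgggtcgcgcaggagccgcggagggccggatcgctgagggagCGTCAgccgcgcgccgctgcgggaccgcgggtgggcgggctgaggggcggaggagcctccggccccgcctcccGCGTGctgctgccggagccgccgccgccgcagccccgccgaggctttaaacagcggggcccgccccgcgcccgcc
CLCA4, chr1:86546828-86547077, plus strand: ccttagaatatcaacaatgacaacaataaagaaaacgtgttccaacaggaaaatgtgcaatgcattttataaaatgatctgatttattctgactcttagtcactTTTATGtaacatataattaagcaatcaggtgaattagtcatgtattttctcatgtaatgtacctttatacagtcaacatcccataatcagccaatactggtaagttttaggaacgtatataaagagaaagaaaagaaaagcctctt
KCNE3, chr11:74467730-74467799, minus strand: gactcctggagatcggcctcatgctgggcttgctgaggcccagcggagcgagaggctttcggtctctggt
In SLC12A2, GCGTG began 194 and 75 bases before the start site and the reverse of TGACG 148 bases before it. In CLCA4, TTTATG began 146 bases before the start site. In the windows not printed, the reverse of GCGTG began at base 31 from the start site of ANO1. In KCNN4, TGACG began at base 19 from the start site and its reverse 55 bases before it. No match lay in the whole windows of KCNE3, CFTR or ATP1B1. Of all 35116 windows in the table, 36.5% held GCGTG, 24.6% held TGACG and 10.6% held TTTATG, so these matches are a description of the letters and not of bound sites.

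Of the 9 genes, 8 passed the filter on low counts. KCNN4 did not, with 0 to 5 counts per library. The test of edgeR across all 15374 genes, with a DEG defined by a fold change over 1.5 and an adjusted p under 0.05, called 2 of the 8 at the high dose, SLC12A2 and KCNE3, both lower than vehicle, where 2.93% of all tested genes were called. Of the 8, only KCNE3 was called without high-dose replicate 2, where 4.90% of all genes were. At the medium dose it called 0 of the 8, where 0.676% of all genes were called, and at the low dose 0 of the 8, where 0.111% were called. From the low to the high dose, the median log2 fold change of the 8 was 0.11, −0.10 and −0.27, beside medians over all genes of −0.0014, −0.0095 and 0.0052. In bulk RNA, fewer cells of a type and less RNA per cell cannot be told apart. All high-dose libraries lay below all vehicle libraries for 4 of the 8 (CFTR, CLCA4, SLC12A2 and KCNE3) and above for 0, where the libraries did not overlap in 22.0% of all genes. At the medium dose 2 lay below (SLC12A2 and KCNE3) and 1 above (ANO1), where 28.7% of all genes did not overlap, and at the low dose 1 lay above (ANO1), where the share was 21.0%.

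**Figure D1:**
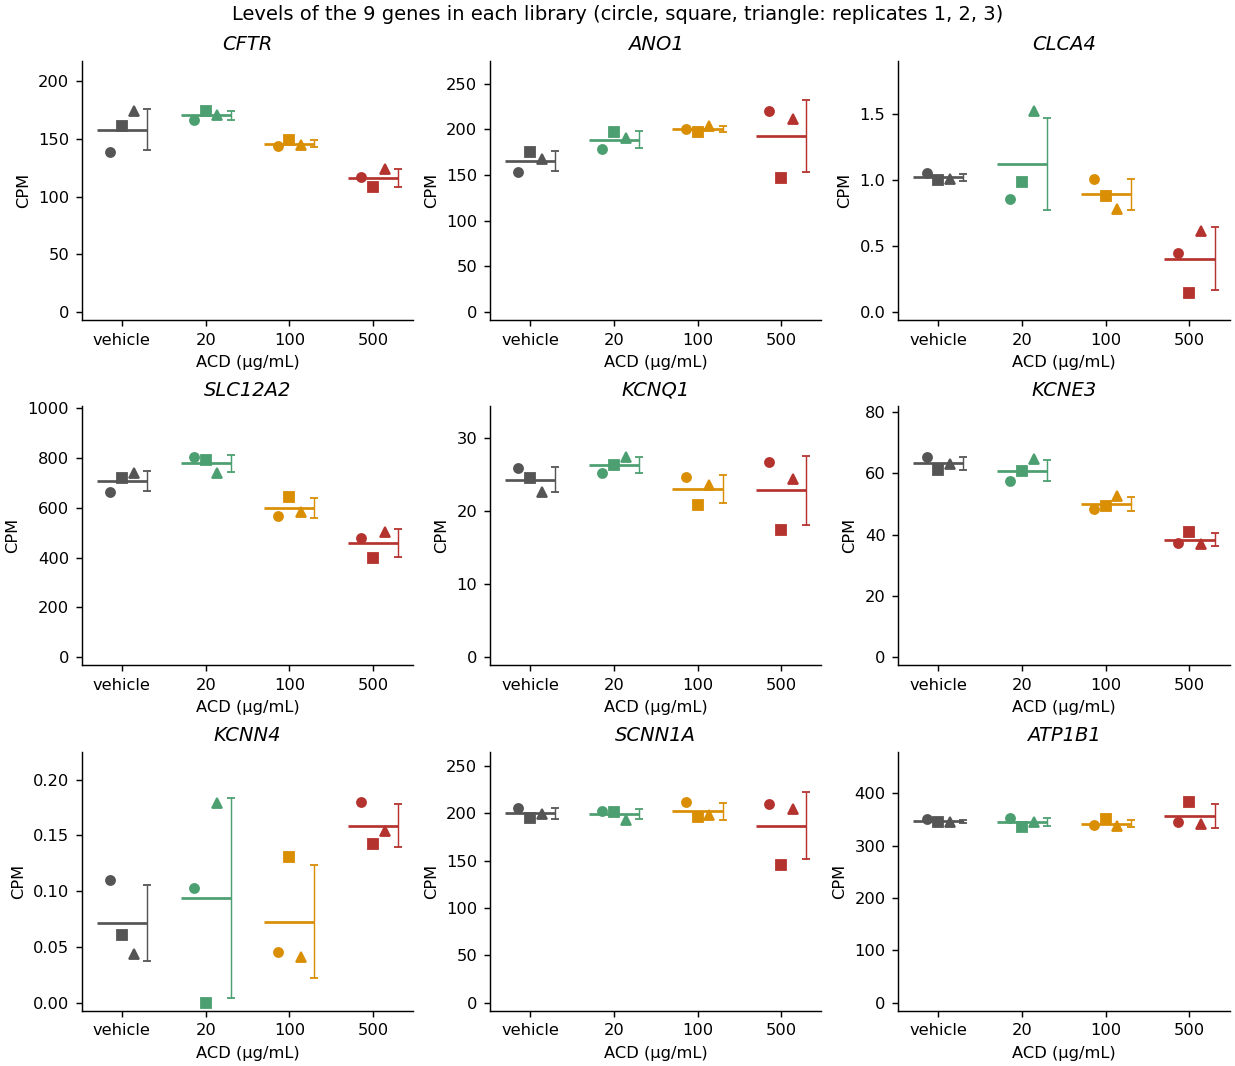
Level of each of the 9 genes in CPM (y axis, linear, a separate scale for each gene) in every library of the vehicle, 20, 100 and 500 µg/mL groups (x axis), with the group mean as a line and the SD as a bar, n = 3. KCNE3 stepped from a vehicle mean of 63.2 CPM to 38.4 CPM at 500 µg/mL with no overlap, while SCNN1A and ATP1B1 differed from their vehicle levels mainly in high-dose replicate 2, drawn as a square.

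CFTR, the apical chloride channel opened by protein kinase A, is annotated at chr7:117287120-117715971 on the plus strand. Its level was 139, 161 and 174 CPM in the vehicle libraries, 166, 174 and 171 CPM in low-dose, 144, 149 and 145 CPM in medium-dose and 117, 108 and 124 CPM in high-dose libraries. The high-dose libraries were below every other library, and the medium- and low-dose libraries fell within the vehicle range or at its upper end. The high-dose log2 fold change was −0.44 (SE 0.09), a level 0.738 times that of vehicle, which did not reach the fold change of 1.5. The log2 fold changes at the medium and low doses were −0.11 (SE 0.08) and 0.11 (SE 0.08). Without high-dose replicate 2 the high-dose value was −0.38 (SE 0.07).

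ANO1, the calcium-activated chloride channel TMEM16A, lies at chr11:69985907-70189530 on the plus strand. It had 153, 175 and 168 CPM in vehicle, 179, 197 and 191 CPM in low-dose, 200, 197 and 204 CPM in medium-dose and 220, 147 and 211 CPM in high-dose libraries. The low- and medium-dose libraries were all above the vehicle libraries, and at the high dose 2 libraries were the highest of all and replicate 2 the lowest. From the low to the high dose the log2 fold changes were 0.19 (SE 0.12), 0.28 (SE 0.12) and 0.22 (SE 0.12), and the last was 0.38 (SE 0.06) without high-dose replicate 2. The ratio of ANO1 to CFTR, each in CPM per kb of canonical transcript, was 1.34 ± 0.0961 (SD, n = 3) in vehicle and then, by increasing dose, 1.41 ± 0.0347, 1.75 ± 0.0569 and 2.10 ± 0.325. The high-dose ratios were 2.38, 1.74 and 2.16, all above the highest vehicle ratio of 1.40.

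CLCA4, a secreted metalloprotease-like protein of the family that modifies calcium-activated chloride currents and is not itself a channel, lies at chr1:86547078-86580754 on the plus strand. It was scarce, with 1.05, 1.00 and 1.01 CPM in vehicle and 0.859, 0.987 and 1.52 CPM at the low dose. It had 1.01, 0.881 and 0.778 CPM in medium-dose and 0.450, 0.142 and 0.615 CPM in high-dose libraries. The high-dose libraries were the lowest and did not overlap with any other group, on 10, 2 and 20 counts against 19, 33 and 23 counts in vehicle. The high-dose log2 fold change was −1.17 (SE 0.35), or −0.89 (SE 0.31) without replicate 2, and the medium- and low-dose ones were −0.20 (SE 0.31) and 0.12 (SE 0.30). It was no DEG at any dose.

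SLC12A2, which encodes the cotransporter NKCC1, lies at chr5:128083766-128189677 on the plus strand, directly downstream of the sequence given above. Its level was 664, 719 and 741 CPM in vehicle and 805, 791 and 740 CPM at the low dose. It was 568, 645 and 584 CPM in medium-dose and 479, 397 and 501 CPM in high-dose libraries. The medium-dose libraries were all below the vehicle libraries and the high-dose libraries below the medium-dose ones, while the low-dose libraries overlapped the upper end of vehicle. The log2 fold changes were 0.14 (SE 0.10), −0.24 (SE 0.10) and −0.62 (SE 0.10) from the low to the high dose, and the high-dose level was 0.649 times that of vehicle. Without high-dose replicate 2 the high-dose value was −0.53 (SE 0.07), below the fold change of 1.5, so the call of SLC12A2 was lost, whereas the 2 remaining high-dose libraries were still below every vehicle library. The call was also lost without vehicle replicate 3 and in edgeR fitted on vehicle and the high dose alone.

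KCNE3, the beta subunit that holds KCNQ1 open in colonic crypts, lies at chr11:74454841-74467729 on the minus strand. Its level was 65.4, 61.2 and 63.0 CPM in vehicle, 57.5, 60.6 and 64.5 CPM in low-dose, 48.2, 49.2 and 52.6 CPM in medium-dose and 37.4, 40.8 and 36.9 CPM in high-dose libraries. The low dose overlapped vehicle, the medium dose lay wholly below both, and the high dose lay wholly below the medium dose. The log2 fold changes were −0.05 (SE 0.07), −0.34 (SE 0.07) and −0.72 (SE 0.07) from the low to the high dose. The high-dose level was 0.607 times that of vehicle, the lowest ratio of the 8 tested genes after that of the scarce CLCA4. High-dose replicate 2 did not stand apart in KCNE3, and without it the log2 fold change was −0.76 (SE 0.07). KCNE3 met the DEG thresholds at the high dose in the main fit and in each of the 19 alternative fits. Those fits reuse the same libraries, and KCNE3 was chosen with its levels known, so this is a description and no independent support.

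KCNQ1, the pore-forming subunit that KCNE3 joins, lies at chr11:2444654-2849105 on the plus strand. It had 25.9, 24.6 and 22.6 CPM in vehicle, 25.2, 26.4 and 27.5 CPM in low-dose, 24.7, 20.9 and 23.6 CPM in medium-dose and 26.7, 17.5 and 24.4 CPM in high-dose libraries. Every dose group overlapped vehicle, and the lowest value was that of high-dose replicate 2. The high-dose log2 fold change was −0.08 (SE 0.13), and it was 0.07 (SE 0.08) without that library. The ratio of KCNE3 to KCNQ1, each in CPM per kb, was 2.66, 2.61 and 2.93 in vehicle and 1.47, 2.46 and 1.59 at the high dose. The high-dose ratios were all below the vehicle ratios, with replicate 2 close to them, and the means were 2.73 ± 0.171 and 1.84 ± 0.537 (SD, n = 3). Exons of the antisense RNA KCNQ1OT1 overlap KCNQ1. By the study's methods the libraries were made with a directional (strand-keeping) kit. The strand setting of the counting is not given in the sources used here, so reads of the overlap may be assigned to either. KCNQ1OT1 had 79.4 ± 5.11 CPM in vehicle and, by increasing dose, 59.6 ± 8.10, 58.7 ± 1.70 and 46.0 ± 15.1 CPM (SD, n = 3), and its part in the KCNQ1 values was not tested.

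KCNN4, the calcium-activated potassium channel of intermediate conductance, lies at chr19:43766533-43780976 on the minus strand. It had 2, 2 and 1 counts in the vehicle libraries, 3, 0 and 4 in the low-dose, 1, 4 and 1 in the medium-dose and 4, 2 and 5 in the high-dose libraries. A difference was not detectable at this depth, because a count of 0 allows up to 0.0886 CPM in the deepest library and 0.188 CPM in the shallowest, and the highest level seen was 0.180 CPM. These limits cover counting error only.

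**Figure D2:**
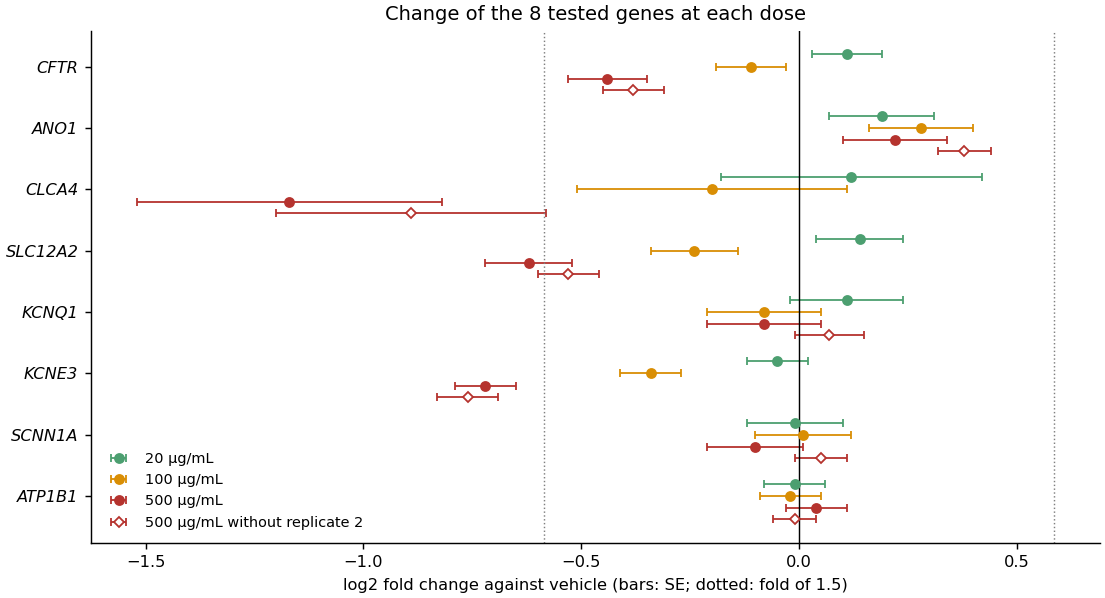
Log2 fold change against vehicle (x axis) of the 8 tested genes (y axis) at 20, 100 and 500 µg/mL, with the SE as bars, and at 500 µg/mL without high-dose replicate 2 as open diamonds. KCNE3 lay at −0.72 with that library and −0.76 without it, SLC12A2 moved from −0.62 to −0.53, inside the dotted line of a 1.5-fold change, and ATP1B1 stayed within 0.04 of 0 at every dose.

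SCNN1A, the alpha subunit of the sodium channel ENaC, lies at chr12:6346843-6377730 on the minus strand. Its level was 206, 195 and 199 CPM in vehicle, 203, 201 and 193 CPM in low-dose, 212, 196 and 198 CPM in medium-dose and 210, 146 and 205 CPM in high-dose libraries. High-dose replicate 2 was low, and the other 11 libraries lay within 193 to 212 CPM. The high-dose log2 fold change was −0.10 (SE 0.11), and 0.05 (SE 0.06) without that library. ENaC assembles from alpha, beta and gamma subunits. The beta subunit SCNN1B had 8 counts and the gamma subunit SCNN1G 1 count over all 12 libraries. Exons of LTBR on the other strand overlap SCNN1A, and LTBR had 142 ± 7.54 CPM in vehicle and 155 ± 8.23 CPM at the high dose (SD, n = 3), and its part in the SCNN1A values was not tested.

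ATP1B1, the beta subunit that the alpha subunit of the sodium pump needs to reach the membrane, lies at chr1:169105697-169310992 on the plus strand. It had 350, 344 and 344 CPM in vehicle, 352, 336 and 345 CPM in low-dose, 339, 350 and 337 CPM in medium-dose and 345, 383 and 341 CPM in high-dose libraries. The groups overlapped, and high-dose replicate 2 was here the highest library. The log2 fold change was −0.01 (SE 0.07), −0.02 (SE 0.07) and 0.04 (SE 0.07) from the low to the high dose, and the last was −0.01 (SE 0.05) without replicate 2. The beta subunit ATP1B3 had a high-dose log2 fold change of −0.06 (SE 0.11, adjusted p = 0.821 in edgeR's quasi-likelihood test with Benjamini-Hochberg adjustment), and of −0.22 (SE 0.06, adjusted p = 0.0201) without replicate 2, in which it was at its highest. In CPM per kb, ATP1B1 stood to ATP1B3 at 2.82 ± 0.122 in vehicle and 3.06 ± 0.348 at the high dose (SD, n = 3). Exons of NME7 overlap ATP1B1 on the other strand, at 10.3 ± 0.780 CPM in vehicle and 10.0 ± 2.09 CPM at the high dose.

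Levels can be compared between genes only per length. In vehicle the order in CPM per kb of canonical transcript was ATP1B1 at 156 ± 1.48, SLC12A2 at 103 ± 5.75, SCNN1A at 63.5 ± 1.68, ANO1 at 34.6 ± 2.38, CFTR at 26.0 ± 2.92, KCNE3 at 20.6 ± 0.701, KCNQ1 at 7.57 ± 0.515, CLCA4 at 0.317 ± 0.00744 and KCNN4 at 0.0366 ± 0.0176 (SD, n = 3). No neighbours in that order overlapped between their vehicle libraries. At the high dose SLC12A2 was at 66.8 ± 7.97 with a range of 57.8 to 72.9, and SCNN1A at 59.3 ± 11.3 with a range of 46.3 to 66.6, so that these neighbours overlapped. CFTR was at 19.2 ± 1.40, KCNE3 at 12.5 ± 0.696 and ANO1 at 40.4 ± 8.32 CPM per kb at the high dose, and the ranges of these 3 stayed apart from each other. The within-library ratio of SLC12A2 to ATP1B1, per kb, was 0.613, 0.674 and 0.695 in vehicle and 0.447, 0.334 and 0.474 at the high dose, with no overlap.

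**Figure D3:**
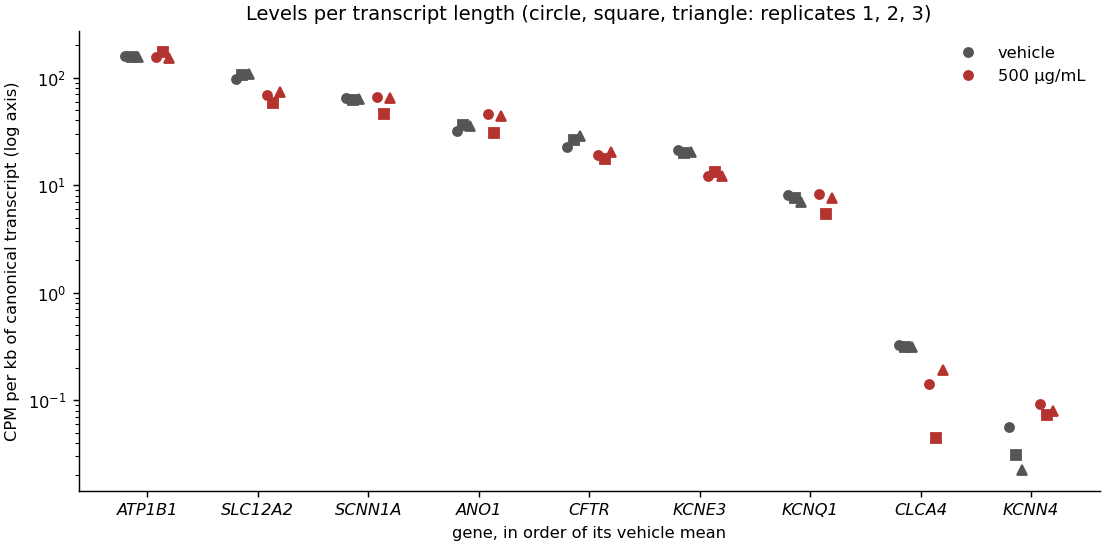
Level of each of the 9 genes in CPM per kb of GENCODE canonical transcript (y axis, log scale) in the 3 vehicle libraries and the 3 libraries at 500 µg/mL, with the genes on the x axis in the order of their vehicle means. ATP1B1 was highest at 156 and KCNN4 lowest at 0.0366 CPM per kb in vehicle, and SLC12A2 came down to the level of SCNN1A at 500 µg/mL.

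The other genes of ion and water transport were taken from 8 lists by role with 129 genes, of which 81 were tested and 9 had no count in any library. At the high dose 1 was upregulated (VIPR1) and 1 downregulated (SLC4A4), against the 2.93% of all genes called. At the medium dose 1 was upregulated (VIPR1) and 0 downregulated, against 0.676%. At the low dose edgeR called 0, against 0.111%, while 8 of the 81 had an unadjusted p under 0.05 beside 7.95% of all genes, and DESeq2 also called 0. Without the requirement on fold change, 7 rose and 1 fell at the high dose, beside 5.77% of all genes with an adjusted p under 0.05, 2 rose at the medium dose beside 1.01%, and 0 changed at the low dose beside 0.124%. With high-dose replicate 2 left out this count was 15 higher and 7 lower at the high dose beside 18.7% of all genes, 5 higher and 2 lower at the medium dose beside 6.87%, and 2 higher at the low dose beside 2.03%, so the number of list genes past the test changed with that library. The median log2 fold change of the 81 was 0.05, 0.03 and 0.00 from the low to the high dose.

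VIPR1, the receptor for vasoactive intestinal peptide that raises cAMP in enterocytes and so opens CFTR, was the one list gene called at both the medium and the high dose. Its level was 52.4, 54.2 and 51.8 CPM in vehicle, 75.2, 64.7 and 64.5 CPM in low-dose, 105, 92.4 and 94.6 CPM in medium-dose and 110, 81.8 and 104 CPM in high-dose libraries. The low-dose libraries were above the vehicle libraries, and the medium- and high-dose libraries were above the low-dose ones and overlapped each other. The log2 fold change was 0.88 (SE 0.11, adjusted p = 0.00144) with 100 µg/mL and 0.91 (SE 0.11, adjusted p = 0.000342) with 500 µg/mL, and with 20 µg/mL it was 0.37 (SE 0.11, adjusted p = 0.316). The value with 500 µg/mL but without high-dose replicate 2 was 1.02 (SE 0.07, adjusted p = 3.10e-08), and the value with 20 µg/mL, again 0.37, had an adjusted p of 0.00794. At the high dose VIPR1 was at 1.87 times its vehicle level. An antisense RNA, VIPR1-AS1, overlaps its exons with 34.1 to 134 counts per library.

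SLC4A4, the sodium bicarbonate cotransporter of the basolateral membrane, had 7.54, 9.79 and 10.1 CPM in vehicle and 6.57, 5.31 and 6.30 CPM at the high dose. The high-dose libraries were below all vehicle libraries, with vehicle replicate 1 the nearest. Its log2 fold change was −0.59 (SE 0.13, adjusted p = 0.0219), just past the fold change of 1.5. Without high-dose replicate 2 it was −0.52 (SE 0.13, adjusted p = 0.00884) and no longer a DEG, and 14 of 19 alternative fits did not call it.

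**Figure D4:**
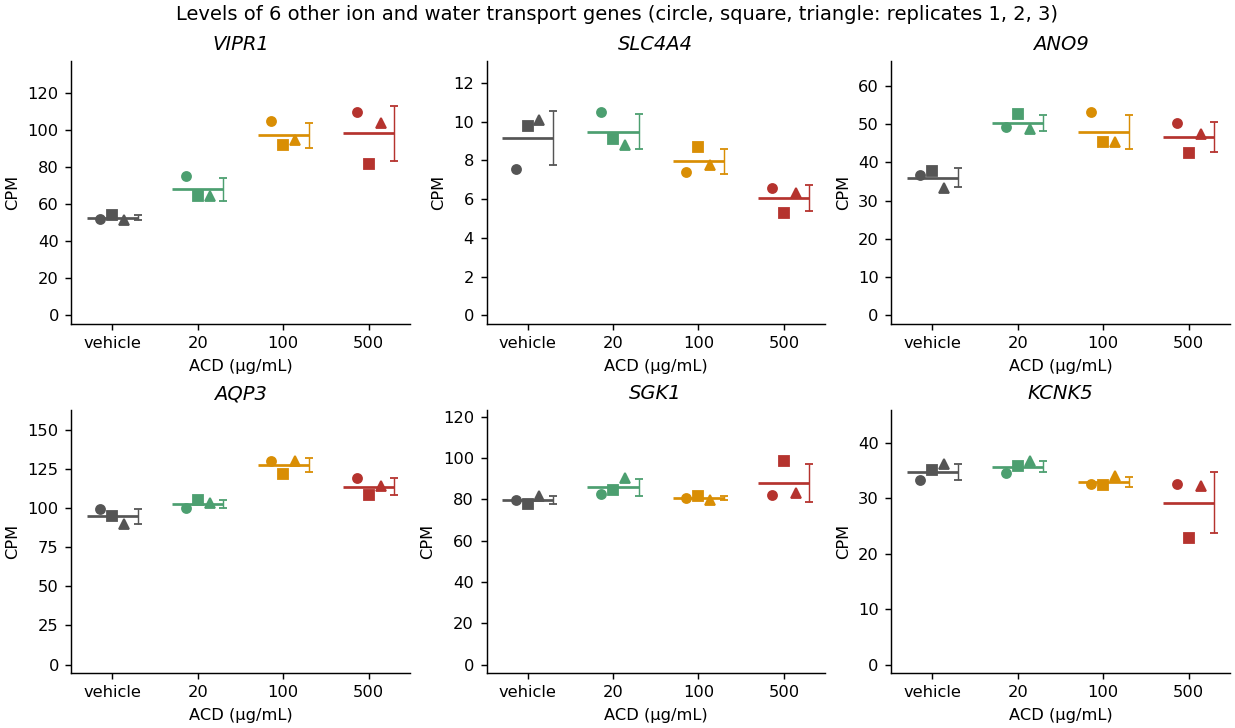
Level in CPM (y axis, linear, a separate scale for each gene) of VIPR1, SLC4A4, ANO9, AQP3, SGK1 and KCNK5 in every library of the vehicle, 20, 100 and 500 µg/mL groups (x axis), with group means as lines and the SD as bars, n = 3. VIPR1 rose from a vehicle mean of 52.8 CPM to 97.2 CPM at 100 µg/mL and 98.8 CPM at 500 µg/mL, and SLC4A4 fell at 500 µg/mL.

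By role, none of the 12 tested genes on the chloride channel list was a DEG at the high dose, and 4 of them rose by less than 1.5-fold, with a list median of 0.12. These 4 are named after their values were seen. They were BEST1 (0.47, SE 0.12, adjusted p = 0.037), ANO9 (0.38, SE 0.09, adjusted p = 0.0298), LRRC8E (0.31, SE 0.07, adjusted p = 0.0306) and LRRC8D (0.29, SE 0.07, adjusted p = 0.0226), all on the log2 scale. LRRC8D and LRRC8E belong to the volume-regulated anion channel. Exons of BEST1 overlap FTH1, which had 76690 to 186380 counts per library on the other strand, so the value of BEST1 is uncertain. ANO9 had 36.8, 37.9 and 33.2 CPM in vehicle and 50.3, 42.5 and 47.4 CPM at the high dose, and its log2 fold changes at the low and medium doses were 0.48 (adjusted p = 0.07) and 0.41 (adjusted p = 0.0569), with adjusted p = 0.00168 and 0.00204 without high-dose replicate 2. The most abundant gene of this list was ANO6, at 134 CPM over all libraries and a high-dose log2 fold change of 0.16 (adjusted p = 0.426), or 0.26 (adjusted p = 0.0274) without high-dose replicate 2, and CLCA1 had 3 counts in all.

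Of the 9 tested anion exchange and carbonic anhydrase genes, SLC4A4 was the DEG and the median was −0.10. The most abundant was the chloride bicarbonate exchanger SLC4A2 at 456 CPM, with a log2 fold change of 0.03 (adjusted p = 0.915), and the apical exchanger SLC26A3 had 0 counts in 12 libraries, which allows up to 0.0101 CPM over them all. Of the 9 tested cation-chloride cotransport genes 0 changed in the fit of all libraries, and 2 rose by less than 1.5-fold without high-dose replicate 2. The kinase WNK1, which acts on NKCC1 through STK39 and OXSR1, had 342, 151 and 332 CPM at the high dose against 222, 279 and 280 CPM in vehicle (log2 fold change 0.08, SE 0.23, adjusted p = 0.902), with replicate 2 below every other library. Without it the log2 fold change of WNK1 was 0.37 (SE 0.10, adjusted p = 0.0185) and that of SLC12A7, the potassium chloride cotransporter KCC4, 0.33 (SE 0.06, adjusted p = 0.000782).

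Of 23 further potassium channel genes only 9 passed the filter, and 0 changed, with a median of −0.02, while 1 rose without high-dose replicate 2. KCNK5, the most abundant at 33.2 CPM, had a log2 fold change of −0.24 (SE 0.11, adjusted p = 0.243), and KCNE2 had 6 counts in all. Of the 14 tested genes of sodium uptake and its control 0 changed, with a median of −0.04, while without high-dose replicate 2 it was 1 higher and 3 lower of 15. SGK1, the kinase that raises ENaC at the membrane, had 0.14 (adjusted p = 0.339), its target NEDD4L, the ligase that removes ENaC, −0.06 (adjusted p = 0.708), the scaffold NHERF1 −0.17 (adjusted p = 0.233) and the protease inhibitor SPINT2, the most abundant gene of the list at 795 CPM, −0.04 (adjusted p = 0.921). In the fit without high-dose replicate 2, the library with the highest SPINT2 level, SPINT2 was at −0.26 (SE 0.08, adjusted p = 0.0301), and the scaffold PDZK1, named after its value was seen, at −0.54 (SE 0.08, adjusted p = 0.000281). At the low and medium doses all NEDD4L libraries lay above its vehicle libraries. Its medium-dose log2 fold change was 0.25 with all libraries (SE 0.08, adjusted p = 0.199) and without high-dose replicate 2 (SE 0.05, adjusted p = 0.00796).

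Of the 5 tested pump genes, 1 rose by less than 1.5-fold, the regulatory subunit FXYD5 (0.28, SE 0.08, adjusted p = 0.0493), which is named after its value was seen. Of the 18 tested secretagogue genes VIPR1 was the only DEG. By adjusted p alone and without high-dose replicate 2, 3 were higher and 1 lower, beside 18.7% of all genes. The most abundant was EZR at 308 CPM with −0.03 (adjusted p = 0.862), and the guanylin receptor GUCY2C had 21 counts in all. Of the 5 tested water channels AQP3 rose, by 0.43 at the medium dose (SE 0.07, adjusted p = 0.0068) and 0.27 at the high dose (SE 0.07, adjusted p = 0.0332), both under 1.5-fold. It was the 1 gene of the 5 above 0 at either dose, and the list medians were −0.14 and −0.19. AQP11, named after its value was seen, was at −0.54 at the medium dose (SE 0.15, adjusted p = 0.153), with all libraries below vehicle. AQP3 had 99.5, 94.9 and 89.5 CPM in vehicle, 130, 122 and 130 CPM in medium-dose and 119, 108 and 114 CPM in high-dose libraries, so both of its dose groups lay above vehicle. Without high-dose replicate 2, CA2 (−0.59, SE 0.09, adjusted p = 0.000235) was called at the high dose, where all libraries gave −0.43 (adjusted p = 0.0694).

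**Figure D5:**
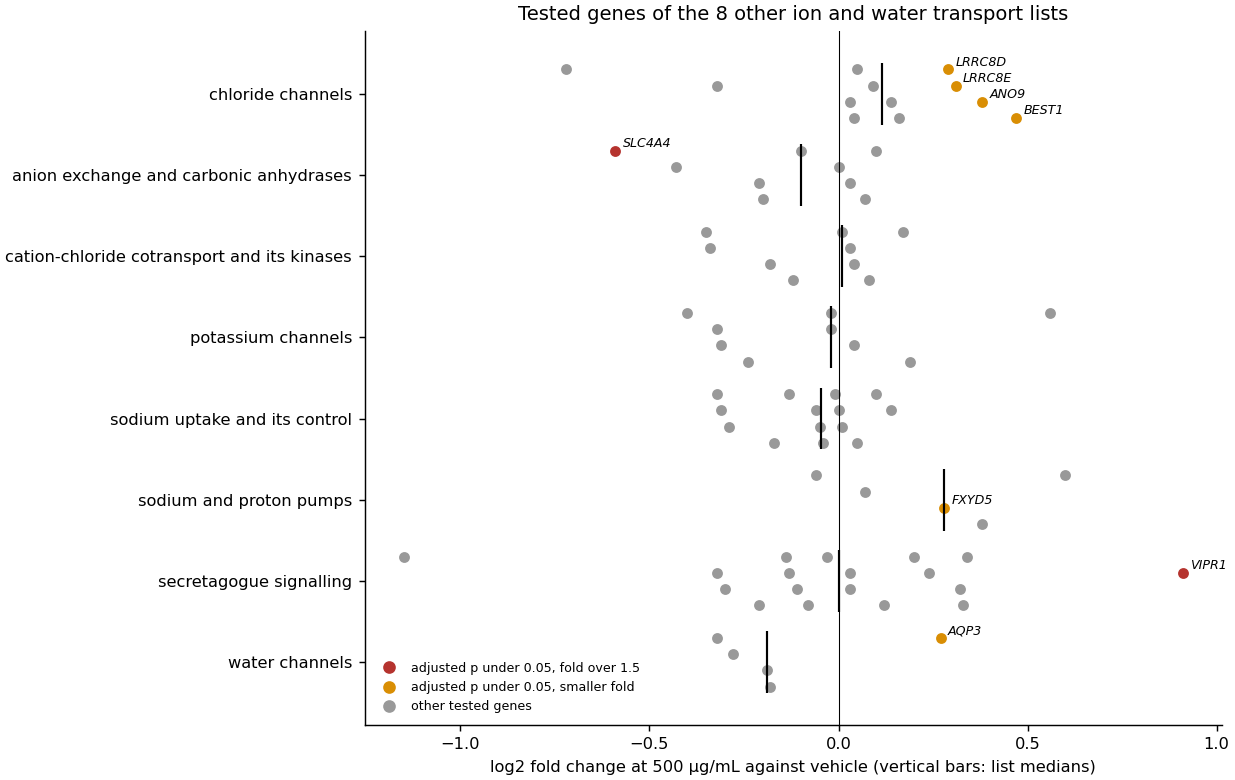
Log2 fold change at 500 µg/mL against vehicle (x axis) of the 81 tested genes in the 8 role lists (y axis), with the list medians as vertical bars and colour for the result of edgeR's test. VIPR1 at 0.91 and SLC4A4 at −0.59 were called, and the 6 other genes past the adjusted p alone, 4 of them on the chloride channel list, lay between 0.27 and 0.47.

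The genes whose levels ran most alike with each ion transport gene were found over the 12 libraries by Pearson's r of log2 CPM, among 13141 genes with a mean of at least 1 CPM. These values describe libraries that share depth and the departure of high-dose replicate 2, and they carry no test. For KCNE3 the nearest genes were NOX1, the colonic NADPH oxidase (r = 0.989, Spearman's rho = 0.944), CD24 (0.980 and 0.958) and ADH6 (0.977 and 0.923). NOX1 had 17.7 CPM in vehicle and 7.47 CPM at the high dose, and CD24 had 1070 and 679 CPM. For SLC12A2 they were PIK3AP1 (0.991 and 0.972), TP53INP2 (0.980 and 0.937) and SEMA3E (0.980 and 0.986), and for CFTR they were the integrin gene ITGA1 (0.984 and 0.965), the unconventional myosin gene MYO6 (0.973 and 0.979) and UGT8 (0.972 and 0.916). For ANO1 they were SLC12A7, the potassium chloride cotransporter KCC4 (0.981 and 0.972), MOV10 (0.966 and 0.951) and CCDC88C (0.964 and 0.979). For KCNQ1 they were ENSG00000267288 (0.942 and 0.944), CACTIN (0.940 and 0.804) and CLCN7 (0.935 and 0.860), for SCNN1A they were ENSG00000280417 (0.984 and 0.937), JUP (0.980 and 0.776) and UBN1 (0.976 and 0.622), and for ATP1B1 they were C5orf15 (0.974 and 0.930), GOLT1B (0.974 and 0.860) and GPR160 (0.961 and 0.720).

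Among the ion transport genes themselves, CFTR and SLC12A2 ran most alike (r = 0.962, rho = 0.916), followed by SLC12A2 and KCNE3 (0.866 and 0.741) and CFTR and KCNE3 (0.840 and 0.650). KCNQ1 and its partner KCNE3 had r = 0.345 and rho = 0.315. SCNN1A and ATP1B1 had r = −0.874 but rho = −0.266, a gap between the measures in which high-dose replicate 2, lowest in SCNN1A and highest in ATP1B1, is the farthest point.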

How the data were processed

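RNA of 12 HT29 libraries was measured by RNA-seq. By the methods and the processing notes, the authors checked reads with FastQC 0.11.9, trimmed them with Trim Galore 0.6.5, aligned them with STAR 2.7.3a and estimated expression per gene with RSEM 1.3.3. The study's text writes the genome as GRCh38 (hg19) and gives other versions of some tools. It names a directional library kit, but the strand setting of RSEM is not given in the sources used here. The deposited values are RSEM's expected counts, not normalized, and 98.1% of the IDs with a count are in GENCODE 44, whose GRCh38 coordinates and lengths were used. The total of 15941255 to 33866644 counts per library sets the precision.

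Counts were rounded to whole numbers and tested in edgeR 4.0.16 under R 4.3.3 with its quasi-likelihood test on all 12 libraries, with filterByExpr (15374 genes), TMM, a robust fit and Benjamini-Hochberg adjustment over all genes. A gene counted as a DEG with a fold change over 1.5 and an adjusted p under 0.05. The script was tested on simulated data. Log2 CPM used a prior count of 2. Tables and figures were made with Python 3.11.15, numpy 2.4.6, pandas 2.3.3 and matplotlib 3.10.9.

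The 9 genes, the 8 role lists (129 genes, all matched by symbol) and the cell type markers were chosen with earlier results of these data known. Named were all 9 genes, list genes called at any dose, a fixed set of partners, the most abundant gene of each list and the 3 genes nearest in pattern. Other names are marked as chosen after their values were seen. Alternatives were DESeq2 1.42.0 with all 12 libraries, either tool with 1 dose and vehicle alone, size factors from DESeq2, no filter, at least 10 counts in every library, the replicate number as a block, no minimum fold change and each library left out. No protein sequences were used, and values of some list genes are not reported here.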

Additional observations from a re-analysis of the deposited data

How the results depend on the processing

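The log2 fold changes of the 8 ion channel and pump genes moved by less than the replicate spread in all alternatives that tested them. CLCA4 was tested in 18 of the 19. The spread was taken from all libraries of the dose group and vehicle, so at the high dose it includes high-dose replicate 2. Leaving out 1 of 3 libraries moves a group mean by less than this spread by construction. Fits with a library left out could therefore hardly fail the comparison, and it is no measure of robustness for them. ANO1 still ranged from 0.12 to 0.38 and CLCA4 from −1.63 to −0.89 at the high dose. At that dose KCNQ1 (−0.20 to 0.07), SCNN1A (−0.19 to 0.05) and ATP1B1 (−0.01 to 0.07) changed sign between fits. KCNE3 ranged from −0.76 to −0.69 and SLC12A2 from −0.69 to −0.53 at the high dose. VIPR1 was called in all 19 alternative fits at the medium dose (adjusted p from 7.59e-30 to 0.014) and at the high dose (1.48e-12 to 0.0241), and SLC4A4 in 5 of 19 (adjusted p from 0.0046 to 0.169). The 2 list genes called at the high dose became 1 with DESeq2 on all libraries, with DESeq2 on vehicle and 1 dose, with edgeR on vehicle and 1 dose and with DESeq2's size factors, and 8 with no minimum fold change. They ranged from 1 to 3 when a library was left out, with 3 without high-dose replicate 2 (CA2 and VIPR1 among them) and without vehicle replicate 1 (BEST1, SLC4A4 and VIPR1). The 1 called at the medium dose became 2 with no minimum fold change and stayed 1 whichever library was left out, and at the low dose the count stayed 0. Over all genes, leaving out high-dose replicate 2 raised the calls from 451 to 768, from 104 to 249 and from 17 to 109 by decreasing dose. The cause of these moves was not tested.

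No pairing of the libraries by replicate number was seen, though 3 libraries per group cannot exclude one. Over 18 same-numbered pairs the correlation of deviations from the group means was between −0.332 and 0.238, and 4 were over 0.1. Over 36 pairs with different numbers it was between −0.369 and 0.402, and 11 were over 0.1. From the high to the low dose, the replicate block left 1, 1 and 0 list genes called, and 379, 75 and 17 over all genes, against 451, 104 and 17 without it. Depth limits KCNN4 and CLCA4, with at most 5 and 34 counts per library.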
